A study of Mus musculus with 9 samples.

Results

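The 52 genes described here are variable (V) gene segments of the antibody and T cell receptor loci. They are the rows of the gene count table named Ighv, Igkv, Iglv, Trav or Trbv with a number and were chosen by raw count alone: the sum over all 9 libraries had to be at least 50. The table held 511 such V gene rows among 54456 genes, and 386 of the 511 had at least 1 count. Of the 52, 17 belong to the antibody heavy chain locus (Igh, chromosome 12), 33 to the kappa light chain locus (Igk, chromosome 6), 1 to the lambda light chain locus (Igl, chromosome 16) and 1 to the T cell receptor beta locus (Trb, chromosome 6). No V gene of the T cell receptor alpha locus (Tra, chromosome 14) reached 50 counts.

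An antibody pairs heavy chains with kappa or lambda light chains, and the variable end of each chain is encoded by a V gene that a developing B cell joins to a short J segment. A B cell hands its joined V genes down to its daughter cells and to the plasma cells that come from them, which make antibody RNA in very large amounts. T cells build the alpha and beta chains of their receptor in the same way from their own V genes. V gene use in a tissue therefore reflects which lymphocyte clones contributed RNA, and in what amounts.

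RNA came from mouse skin lesions that the submitters call AA-like, in a study of microneedle (MN) delivery in immune-mediated alopecia, and polyA RNA was sequenced in bulk. The 3 groups of 3 libraries are untreated lesions, lesions that received microneedles without cargo (the empty device) and lesions that received microneedles carrying interleukin 2 (IL-2) and the chemokine CCL22 (the loaded device). The labels name tissue and treatment only. They give no strain, age, time after treatment or way of making the lesions, and are silent on whether a group's libraries are different animals. The p-values therefore measure library-to-library spread, which could be technical only. Each group enters 2 of the 3 pairwise comparisons, so these share libraries. The reads were aligned to the mm39 mouse genome, built from C57BL/6J, and V gene alleles differ between strains: how closely the animals' own V genes match this reference was not tested. In bulk RNA, fewer cells of a type and less RNA per cell cannot be told apart.

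Total counts ranged from 85962714 to 96740589 per library, and the 52 V genes together held 9350 counts over all 9. Libraries of a group were close to each other: the common biological coefficient of variation was 0.0390, and the median squared difference between libraries over genes was 1.82 to 3.58 times counting noise within groups, against 8.93 to 19.1 times between groups. Spread among the libraries of a group was taken over genes with at least 30 counts in the group. Its median for V genes was 1.53 (untreated), 1.73 (empty device) and 1.66 (loaded device) times counting noise, against 1.74, 2.05 and 1.36 over all genes. The highest V gene values were 5.43 for Ighv1-19, 8.78 for Igkv8-30 and 8.42 for Igkv5-39 in the same order of groups. At a given relative spread this ratio grows with the count. It therefore does not compare relative spread between V genes and genes with higher counts.

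The rule used the summed count and no group label. The 5 genes just inside it were Igkv3-5 with 51 counts, Igkv12-44, Ighv1-9 and Ighv2-9 with 52 each and Ighv7-2 with 53. Just outside were Igkv12-46 with 48, Ighv1-12 with 47 and Trbv19 and Igkv4-57-1 with 45 each. A summed count can come from 1 group, and 33 of the 52 would fall under 50 without the group where they were highest, so their listing depended on that group. That can favour genes that differ between groups, but a gene just above the threshold can fall under it without differing, and Igkv9-124, with no call, is among them. The other 19 would have reached 50 without it, namely 3 of 17 heavy chain genes, 15 of 33 kappa genes and the lambda gene. Counts of differing genes below are therefore read as descriptions of these 52.

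Some V genes that led a locus in a group, and Igkv8-19, are shown by the last 150 coding bases of each, 5′ to 3′. These bases hold the framework stretch just before the joining site. Capitals mark the last in-frame cysteine codon, the conserved cysteine at the edge of the antigen-contacting loop that joining completes. Ighv7-3 (chr12:114116800-114117264, minus strand) and Igkv2-109 (chr6:68279411-68280142, plus strand) led their loci in untreated skin. Igkv8-30 (chr6:70094045-70094604, minus strand) led the kappa locus under the empty device and Igkv6-20 (chr6:70312825-70313491, minus strand) under the loaded device. Igkv8-19 (chr6:70317860-70318437, minus strand) lies next to Igkv6-20 and had another pattern. Positions are those of the count table, in mm39, and the sequences are GENCODE release M21 transcripts of the same names from the earlier build GRCm38, so an animal's own allele may differ.
Ighv7-3: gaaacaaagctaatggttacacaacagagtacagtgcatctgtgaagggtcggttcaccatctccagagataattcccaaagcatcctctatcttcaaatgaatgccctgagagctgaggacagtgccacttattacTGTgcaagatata
Igkv2-109: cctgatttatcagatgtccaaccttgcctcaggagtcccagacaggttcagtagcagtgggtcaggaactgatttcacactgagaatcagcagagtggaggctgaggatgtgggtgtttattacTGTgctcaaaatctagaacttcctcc
Igkv8-30: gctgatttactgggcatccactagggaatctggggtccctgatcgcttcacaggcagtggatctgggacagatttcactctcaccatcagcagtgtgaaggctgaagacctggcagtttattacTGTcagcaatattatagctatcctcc
Igkv8-19: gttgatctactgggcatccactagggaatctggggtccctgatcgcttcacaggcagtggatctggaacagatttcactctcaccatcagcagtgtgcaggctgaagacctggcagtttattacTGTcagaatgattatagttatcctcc
Igkv6-20: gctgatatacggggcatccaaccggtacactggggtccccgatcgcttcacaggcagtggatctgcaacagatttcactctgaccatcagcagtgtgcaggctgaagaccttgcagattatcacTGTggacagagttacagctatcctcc

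V genes are near-copies of each other, which limits what a count of any of them means. Over the V exon, the nearest other V gene was 75.2 to 98.3% identical (median 95.6%) among the 52, all of which were matched by name. A median of 78.8% of a V gene's 50-base stretches occurred in no other V gene transcript. All stretches were unique in 8 genes and under 50% were unique in 6, with the lowest share, 35.9%, in Igkv6-20, which differs from Igkv6-29 at 5 of 298 aligned bases. Igkv6-29 itself held 5 counts over the 9 libraries. Ighv8-8 (chr12:115257682-115258124, minus strand) and Ighv8-5 (chr12:115031180-115031622, minus strand), which shared a pattern across the groups, are 96.2% identical. Their last 150 coding bases are shown with the 7 differing bases in capitals.
Ighv8-8: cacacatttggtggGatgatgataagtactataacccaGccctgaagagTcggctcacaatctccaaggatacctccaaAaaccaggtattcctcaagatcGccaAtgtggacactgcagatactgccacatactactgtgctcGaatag
Ighv8-5: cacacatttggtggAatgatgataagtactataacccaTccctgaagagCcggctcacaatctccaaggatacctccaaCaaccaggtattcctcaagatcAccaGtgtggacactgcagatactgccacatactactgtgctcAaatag

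Different V genes were high in each treatment group, in both antibody loci. Of the 52 genes, 44 passed the filter on low counts and were tested, 13 in Igh, 29 in Igk, 1 in Igl and 1 in Trb. The 8 that did not pass were Igkv1-117, Igkv12-44, Igkv3-5, Igkv3-1, Ighv2-9, Ighv6-3, Ighv1-4 and Ighv1-9. With edgeR's quasi-likelihood test and a Benjamini-Hochberg adjusted p under 0.05, called at any size, 38 of the 44 differed among the 3 groups, where 59.2% of all tested genes did. A call of at least 2-fold in size was less common over all genes: 1.92% for the loaded device against untreated, 2.33% for the empty device against untreated and 1.97% for the loaded against the empty device. Among the 44 V genes these calls numbered 29 (8 higher, 21 lower), 28 (8 higher, 20 lower) and 26 (16 higher, 10 lower). Over all genes, 0.322% were higher and 1.6% lower in the first comparison, 0.656% and 1.67% in the second, and 0.794% and 1.17% in the third. The median log2 fold change of the 44 was -1.03, -0.73 and 0.78 in these comparisons, against -0.014, -0.016 and 0.015 over all tested genes. Among the 19 genes whose listing did not hang on their highest group, all tested, the 2-fold calls numbered 10, 12 and 11, and 15 of the 19 had at least 1.

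A listed V gene was often high in exactly 1 group, a pattern that the rule on summed counts can favour. With a call of at least 2-fold against both other groups, 17 V genes were highest in untreated skin, 5 under the empty device and 6 under the loaded device. Over all tested genes, 0.472%, 0.196% and 0.0959% met the same conditions, and 0.763% did so in any group. The 17, 5 and 6 V genes made up 13.8% of the 123, 9.80% of the 51 and 24% of the 25 genes that did so in the whole table. By the same conditions, 2 V genes were lowest in untreated skin, 9 under the empty device and 5 under the loaded device, against 0.0959%, 0.268% and 0.353% of all tested genes, or 0.717% in any group. Of the 44, 9 were neither, and 9 were highest in 1 group and lowest in another. Of the V genes highest in 1 group, only some would have reached 50 counts without it. In untreated skin these were Igkv15-103, Igkv10-96, Igkv19-93, Igkv6-15 and Ighv7-3. Under the empty device they were Igkv14-111, Igkv8-30 and Igkv8-19, and under the loaded device Igkv8-21. The others were listed only through their high group, so their number cannot be set against the shares over all genes.

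**Figure D1:**
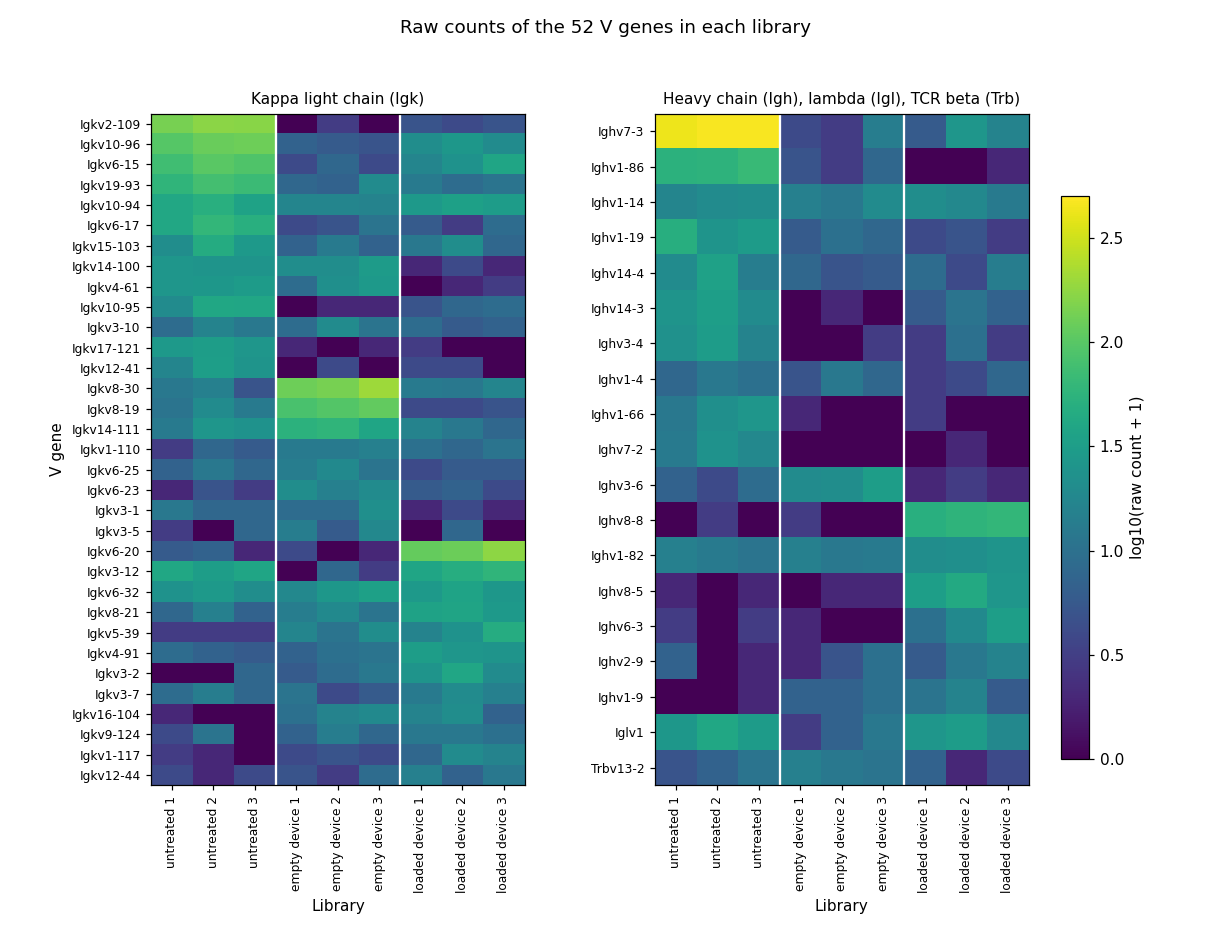
Raw count of each of the 52 V genes (rows) in each of the 9 libraries (columns), on a colour scale of log10(raw count + 1), with kappa genes on the left and heavy chain, lambda and T cell receptor genes on the right. Genes are ordered by the group where they were highest, and the bright blocks fall in different rows in each group, led by Ighv7-3 and Igkv2-109 in untreated skin, Igkv8-30 under the empty device and Igkv6-20 under the loaded device.

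Among heavy chain V genes, 8 were highest in untreated skin and Ighv7-3 was far ahead of the rest. Untreated libraries held 432, 467 and 466 counts of it, empty-device libraries 3, 2 and 13, and loaded-device libraries 5, 25 and 15. No treated library came near an untreated library, and the 2 treated groups overlapped. Its level was 5.37 ± 0.119 CPM (SD, n = 3; CPM is the count scaled to library size) untreated, 0.0626 ± 0.0628 under the empty device and 0.163 ± 0.109 under the loaded device. The log2 fold change was -6.39 (SE 0.317, edgeR adjusted p = 5.39e-10) for the empty device and -5.02 (SE 0.272, adjusted p = 2.82e-09) for the loaded device, and -7.56 for the empty device without its library 3. Between the 2 devices the difference did not pass (log2 fold change 1.37, SE 0.598, edgeR adjusted p = 0.0878).

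Ighv7-2, the gene most like Ighv7-3 at 95.2% identity, was also an untreated-group gene at a much lower count. It had 12, 23 and 17 counts untreated, 0 in all 3 empty-device libraries and 0, 1 and 0 in the loaded-device libraries. Untreated skin was at least 19.6-fold higher than the empty device, taking a floor of 3 counts over the group, and 56.2 times the loaded device (95% counting interval 9.65 to 2262). Such intervals cover counting error only, and without loaded-device library 2 that group is at 0. Ighv1-86, annotated as a V pseudogene, held 53, 54 and 65 counts untreated, 4, 2 and 7 under the empty device and 0, 0 and 1 under the loaded device. All 3 groups were apart: untreated was 186 times the loaded device (counting interval 32.9 to 7386), and the empty device had a log2 fold change of -3.86 (SE 0.375, edgeR adjusted p = 9.3e-10) against untreated. The loaded device was also called lower than the empty device, a call lost without empty-device library 3 (edgeR adjusted p = 0.0516). Its only count under the loaded device came from library 3.

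The other heavy chain genes of the untreated group were lower in count and fell in both treated groups. Ighv1-66 had 11, 21 and 25 counts untreated against 1, 0 and 0 under the empty device and 2, 0 and 0 under the loaded device. Ighv1-19 had 48, 24 and 29, then 5, 9 and 7, then 3, 4 and 2 in the same order of groups. For these genes no treated library reached the lowest untreated library. Without library 1 either treated group is at 0 for Ighv1-66. Untreated skin had 64.4 times (counting interval 11.1 to 2586) and 30.8 times (8.15 to 261) the Ighv1-66 of the empty and loaded devices. Ighv1-19 had log2 fold changes of -2.42 (SE 0.391) and -3.55 (SE 0.458) for the empty and the loaded device, with edgeR adjusted p = 6.23e-06 and 2.85e-07.

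In 2 further heavy chain genes the loaded device lay between the other groups or near the empty device. Ighv14-3 had 24, 32 and 19 counts untreated, 0, 1 and 0 under the empty device and 5, 10 and 6 under the loaded device. Ighv3-4 had 22, 30 and 15, then 0, 0 and 2, then 2, 9 and 2. In Ighv14-3 no 2 groups overlapped, and in Ighv3-4 the treated groups met at 2 counts. Against untreated, the loaded device had log2 fold changes of -1.93 (SE 0.415, edgeR adjusted p = 0.000354) for Ighv14-3 and -2.45 (SE 0.524, adjusted p = 0.000354) for Ighv3-4, the latter -3.52 without loaded-device library 2. Untreated skin had 84.7 times (counting interval 14.7 to 3388) and 37.8 times (10.1 to 319) the empty device's Ighv14-3 and Ighv3-4, whose few empty-device counts came from library 2 and library 3 alone. The loaded device was higher than the empty device in Ighv14-3 (21.9 times, 3.53 to 907) and in Ighv3-4 (6.79 times, 1.54 to 62.0), but the Ighv3-4 call did not survive leaving out untreated library 2, loaded-device library 2 or either of empty-device libraries 1 and 2 (edgeR adjusted p between 0.0511 and 0.391).

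Ighv14-4 was the least separated of the 8, with 19, 34 and 13 counts untreated, 7, 4 and 5 under the empty device and 8, 3 and 13 under the loaded device. The untreated and loaded-device libraries met at 13. The log2 fold change was -2.19 (SE 0.485, edgeR adjusted p = 0.000389) for the empty device and -1.56 (SE 0.451, adjusted p = 0.00588) for the loaded device. The second call was lost without untreated library 2 (adjusted p = 0.0954) or loaded-device library 2 (adjusted p = 0.0524).

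Under the empty device, Ighv3-6 was the heavy chain gene with the most counts. Empty-device libraries held 19, 20 and 31 counts, untreated libraries 6, 3 and 8, and loaded-device libraries 1, 2 and 1, with no overlap between the groups. The empty device was higher than untreated (log2 fold change 1.84, SE 0.431, edgeR adjusted p = 0.000689), and the loaded device was lower than the empty device (a log2 fold change of -3.94, SE 0.567, adjusted p = 1.34e-06). The loaded device was also lower than untreated (log2 fold change -2.10, adjusted p = 0.0209), but not after leaving out untreated library 1 or 3 or loaded-device library 1 or 3 (edgeR adjusted p between 0.0515 and 0.0976).

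Under the loaded device, the paralogues Ighv8-8 and Ighv8-5 stood out. Loaded-device libraries held 50, 56 and 60 counts of Ighv8-8, against 0, 2 and 0 untreated and 2, 0 and 0 under the empty device. For Ighv8-5 they held 32, 43 and 25, against 1, 0 and 1 untreated and 0, 1 and 1 under the empty device. Neither gene had more than 2 counts in any other library. The loaded device had 76.8 times the untreated level of Ighv8-8 (counting interval 20.9 to 639) and 86.7 times that of the empty device (23.6 to 722). The low groups of Ighv8-8 rest on untreated library 2 and empty-device library 1, and are at 0 without them. For Ighv8-5 the ratios were 46.3 (12.5 to 387) and 52.2 (14.1 to 437). The edgeR adjusted p-values were 1.2e-09 and 3.59e-10 for Ighv8-8 and 4.86e-08 and 1.61e-08 for Ighv8-5. How many reads of either gene fit both is unknown from a count table: of their 312 aligned V exon bases, 12 differ. Ighv6-3, which did not pass the filter and was not tested, held 9, 18 and 32 counts under the loaded device, 2, 0 and 2 untreated and 1, 0 and 0 under the empty device.

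Some heavy chain genes did not separate the groups. Ighv1-14, a V pseudogene with the highest 3-group p of its locus (edgeR adjusted p = 0.461), had 16, 19 and 20 counts in untreated skin, 14, 11 and 19 under the empty device and 20, 17 and 12 under the loaded device. Its log2 fold changes lay between -0.49 and 0.22, with standard errors of 0.344 to 0.356. Ighv1-82 was called once, and by less than 2-fold: the loaded device was higher than the empty device (a log2 fold change of 0.87, SE 0.34, edgeR adjusted p = 0.0414).

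**Figure D2:**
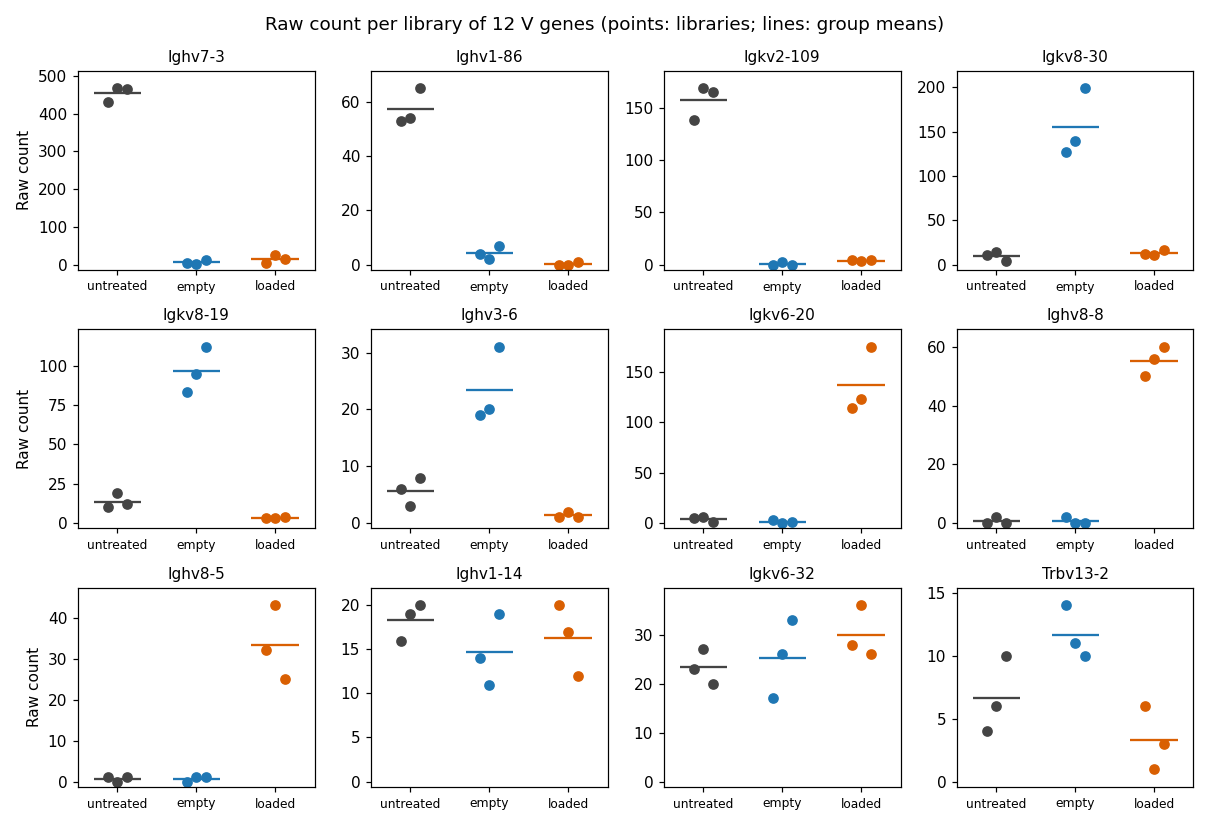
Raw count (vertical axes, from 0, scaled per gene) of 12 V genes in the 9 libraries by group. Points are libraries and lines are group means: Ighv7-3, Ighv1-86 and Igkv2-109 are high in untreated skin, Igkv8-30, Igkv8-19 and Ighv3-6 under the empty device, Igkv6-20, Ighv8-8 and Ighv8-5 under the loaded device, while the groups of Ighv1-14 and Igkv6-32 overlap.

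The kappa locus had 9 V genes highest in untreated skin, with Igkv2-109 and Igkv10-96 holding the most counts. Untreated libraries held 139, 169 and 166 counts of Igkv2-109, empty-device libraries 0, 2 and 0, and loaded-device libraries 4, 3 and 4. Igkv10-96 had 96, 121 and 127, then 6, 5 and 4, then 20, 26 and 19 in the same order. In both genes no library of 1 group reached a library of another. Untreated skin had 268 times the Igkv2-109 of the empty device (counting interval 73.7 to 2216), and the loaded device had a log2 fold change of -5.49 (SE 0.289, edgeR adjusted p = 8.9e-15) against untreated. The loaded device was also called above the empty device in Igkv2-109 (5.74 times, 1.25 to 53.3), a call lost when library 1 or 3 of either treated group was left out (edgeR adjusted p between 0.0595 and 0.122) and with DESeq2 (adjusted p = 0.0604). Its empty-device counts all came from library 2. Igkv10-96 had log2 fold changes of -4.66 (SE 0.276) for the empty and -2.51 (SE 0.213) for the loaded device against untreated, and 2.15 (SE 0.359) for the loaded against the empty device, with edgeR adjusted p = 4.48e-14, 1.47e-10 and 1.34e-05.

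Igkv10-96 has 2 close relatives next to it, and the group means of all 3 were in the order untreated, loaded, empty. Igkv10-95 held 19, 40 and 39 counts untreated, 0, 1 and 1 under the empty device and 4, 7 and 8 under the loaded device. Igkv10-94 held 41, 49 and 35, then 16, 16 and 15, then 28, 33 and 30. In both genes the libraries of the 3 groups did not overlap. Igkv10-95 was called in all 3 comparisons, and untreated skin had 55.3 times the level of the empty device (counting interval 14.9 to 463). Igkv10-94 was lower under the empty device than in either other group (log2 fold change -1.58, SE 0.267, against untreated, edgeR adjusted p = 1.25e-05), and its loaded against untreated difference did not pass (log2 fold change -0.57, adjusted p = 0.0587). Igkv10-95 and Igkv10-94 are 97% identical over the V exon, and Igkv10-96 is 93.6% and 94.6% identical to them. The last 150 coding bases show where reads could tell them apart, with capitals at each base that differs within the trio.
Igkv10-96: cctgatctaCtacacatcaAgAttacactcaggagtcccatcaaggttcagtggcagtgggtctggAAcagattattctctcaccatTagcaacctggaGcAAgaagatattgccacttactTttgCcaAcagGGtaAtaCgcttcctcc
Igkv10-95: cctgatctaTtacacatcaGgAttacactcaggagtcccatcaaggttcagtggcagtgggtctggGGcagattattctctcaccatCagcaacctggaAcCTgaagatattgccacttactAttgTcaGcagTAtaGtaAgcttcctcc
Igkv10-94: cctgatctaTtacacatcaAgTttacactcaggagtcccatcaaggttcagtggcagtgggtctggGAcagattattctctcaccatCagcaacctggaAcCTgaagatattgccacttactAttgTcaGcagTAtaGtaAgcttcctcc

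Igkv6-15, Igkv19-93 and Igkv6-17 were the next kappa genes of the untreated group. Igkv6-15 had 74, 100 and 90 counts untreated, 3, 7 and 3 under the empty device and 16, 23 and 38 under the loaded device, with no overlap. Its log2 fold changes were -4.48 (SE 0.338) for the empty and -1.89 (SE 0.247) for the loaded device against untreated (edgeR adjusted p = 6.07e-12 and 3.56e-07). In the other 2 genes the treated groups overlapped each other and stayed below untreated. Igkv19-93 had 58, 77 and 69, then 7, 6 and 19, then 12, 8 and 10 counts, and Igkv6-17 had 41, 60 and 50, then 3, 4 and 10, then 5, 2 and 8. For the empty device the log2 fold changes were -2.83 (SE 0.309) and -3.30 (SE 0.384), and without empty-device library 3 they were -3.49 and -3.92. Under the loaded device they were -2.86 (SE 0.313) and -3.41 (SE 0.394), all with edgeR adjusted p of 4.31e-08 or lower in the full fit.

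Among the kappa genes of lower count, Igkv17-121 and Igkv12-41 were counted almost wholly in untreated skin. Igkv17-121 held 28, 31 and 25 counts untreated, 1, 0 and 1 under the empty device and 2, 0 and 0 under the loaded device. Igkv12-41 had 16, 32 and 24, then 0, 3 and 0, then 3, 3 and 0. No treated library of either gene had more than 3 counts, and the loaded-device counts of Igkv17-121 and the empty-device counts of Igkv12-41 came from library 1 and library 2 alone. Untreated skin had 47.4 times (counting interval 12.7 to 398) and 45.4 times (12.2 to 381) the Igkv17-121 of the empty and loaded devices, and 27.1 times (8.91 to 134) the Igkv12-41 of the empty device. For the loaded device Igkv12-41 had a log2 fold change of -3.61 (SE 0.606, edgeR adjusted p = 1.68e-05). Igkv15-103 was less separated, with 20, 45 and 27 counts untreated, 6, 12 and 6 under the empty device and 11, 20 and 7 under the loaded device. Untreated and loaded-device libraries met at 20, and the loaded call (log2 fold change -1.38, SE 0.384, edgeR adjusted p = 0.00444) was lost without untreated library 2 (adjusted p = 0.0737).

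Under the empty device 4 kappa genes were highest, and Igkv8-30 and Igkv8-19 held the most counts. Empty-device libraries held 127, 139 and 199 counts of Igkv8-30, untreated libraries 11, 14 and 4, and loaded-device libraries 12, 11 and 16. Every empty-device library was far above all others, which overlapped. It had a log2 fold change of 3.81 (SE 0.274, edgeR adjusted p = 3.94e-12) for the empty device against untreated and -3.50 (SE 0.259, adjusted p = 9.58e-12) for loaded-device relative to empty-device skin. The difference between its untreated and loaded-device groups did not pass (log2 fold change 0.31, SE 0.406, edgeR adjusted p = 0.594).

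Igkv8-19, 92.7% identical to Igkv8-30, was high in the same group and unlike it also low under the loaded device. It had 83, 95 and 112 counts under the empty device, 10, 19 and 12 untreated and 3, 3 and 4 under the loaded device, with no overlap. The log2 fold changes were 2.64 (SE 0.25) for the empty device against untreated, -2.11 (SE 0.445) for the loaded device against untreated and -4.74 (SE 0.323) for the loaded against the empty device, with edgeR adjusted p = 5.49e-10, 0.000291 and 1.1e-12. Igkv14-111 had 53, 58 and 38 counts under the empty device, 12, 25 and 23 untreated and 15, 11 and 7 under the loaded device, and the untreated and loaded-device libraries overlapped. Its log2 fold change was 1.14 (SE 0.291, edgeR adjusted p = 0.00171) for the empty device against untreated and -2.10 (SE 0.322, adjusted p = 3.75e-06) for the loaded against the empty device. Loaded-device skin was also called below untreated (log2 fold change -0.96, adjusted p = 0.035), but not without untreated library 2 or 3 or loaded-device library 2 or 3 (edgeR adjusted p between 0.0763 and 0.168).

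Igkv6-23 was the fourth, at lower counts. It held 20, 14 and 19 counts under the empty device, 1, 4 and 2 untreated and 5, 6 and 3 under the loaded device. No other library reached the empty-device libraries. The log2 fold change was 2.69 (SE 0.54, edgeR adjusted p = 0.000123) for the empty device against untreated, 3.28 without untreated library 2, and -1.83 (SE 0.468, adjusted p = 0.00202) for the loaded against the empty device.

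Under the loaded device 4 kappa genes were highest, led by Igkv6-20. Loaded-device libraries held 114, 123 and 175 counts of it, untreated libraries 5, 6 and 1, and empty-device libraries 3, 0 and 1. The loaded libraries were far above the other 6, whose groups overlapped. The level was 1.5 ± 0.321 CPM (SD, n = 3) under the loaded device, 0.0476 ± 0.0316 untreated and 0.0143 ± 0.0165 under the empty device. The log2 fold change was 4.94 (SE 0.343, edgeR adjusted p = 5.4e-12) against untreated and 6.61 (SE 0.409, adjusted p = 3.82e-13) against the empty device, the latter 7.84 without empty-device library 1. Its neighbour Igkv8-19 was lowest in this group.

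The other 3 kappa genes of the loaded group differed less. Igkv4-91 had 31, 25 and 24 counts under the loaded device, 8, 6 and 5 untreated and 6, 9 and 10 under the empty device. Igkv8-21 had 35, 37 and 28, then 7, 14 and 6, then 13, 18 and 10 in the same order of groups. In both, every loaded-device library was above every other library. The log2 fold changes against untreated and against the empty device were 1.94 (SE 0.387) and 1.73 (SE 0.367) for Igkv4-91, and 1.77 (SE 0.359) and 1.34 (SE 0.333) for Igkv8-21, with edgeR adjusted p of 0.0015 or lower. Igkv3-2 had 24, 39 and 19 counts under the loaded device, 5, 8 and 11 under the empty device and 0, 0 and 7 untreated. All of its untreated counts came from library 3. Its log2 fold change was 3.38 (SE 0.641, edgeR adjusted p = 0.000166) against untreated, where leaving out library 3 puts the group at 0, and 1.82 (SE 0.505, adjusted p = 0.00546) against the empty device.

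Other kappa genes were marked by the group where they were low. Igkv16-104 held 1, 0 and 0 counts untreated, 9, 15 and 18 under the empty device and 15, 20 and 6 under the loaded device. Igkv5-39 had 2, 2 and 2, then 16, 10 and 20, then 15, 23 and 46. These 2 genes were lowest in untreated skin, and their treated groups overlapped. Igkv16-104 had its only untreated count in library 1. It was 37.2 times untreated under the empty device (counting interval 6.32 to 1504) and 37.9 times under the loaded device (6.44 to 1534). Igkv5-39 had log2 fold changes of 2.7 (SE 0.608) and 3.61 (SE 0.551) for the empty and the loaded device against untreated, with edgeR adjusted p = 0.000478 and 3.88e-06.

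Igkv3-12 was lowest under the empty device. It had 40, 31 and 38 counts untreated, 0, 7 and 2 under the empty device and 38, 47 and 57 under the loaded device. The empty-device libraries lay below all others, and the other groups overlapped at 38 to 40. Its log2 fold change was -3.72 (SE 0.449, edgeR adjusted p = 6.29e-08) for the empty device against untreated and 3.98 (SE 0.434, adjusted p = 1.29e-08) for the loaded against the empty device, or -5.17 and 5.44 without empty-device library 2. Igkv10-94 and the lambda gene below showed the same call.

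Igkv14-100 and Igkv4-61 were lowest under the loaded device. Igkv14-100 had 25, 24 and 24 counts untreated, 20, 20 and 29 under the empty device and 1, 3 and 1 under the loaded device. Igkv4-61 had 25, 26 and 29, then 8, 21 and 28, then 0, 1 and 2. The loaded-device libraries stood below all others in both genes. For Igkv14-100 the loaded device had a log2 fold change of -3.88 (SE 0.496, edgeR adjusted p = 2.43e-07) against untreated and -3.63 (SE 0.505, adjusted p = 7.93e-07) against the empty device, or -4.56 and -4.30 without loaded-device library 2. Untreated skin had 28.8 times the loaded device's Igkv4-61 (counting interval 9.52 to 143), and the empty device had 18.2 times (5.92 to 90.8). Without loaded-device library 3 the fitted log2 fold changes of Igkv4-61 were -5.51 against untreated and -4.85 against the empty device, from -4.68 and -4.02.

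The remaining kappa genes gave 1 call each or none. Igkv6-25 was lower under the loaded than the empty device (a log2 fold change of -1.57, SE 0.488, edgeR adjusted p = 0.0102) and Igkv3-7 higher (1.36, SE 0.47, adjusted p = 0.0202). The first call was lost without empty-device library 2 or loaded-device library 1 (adjusted p = 0.0616 and 0.0559). The second was 1.96 without empty-device library 1 and was lost without empty-device libraries 2 and 3 each, and without loaded-device library 2 (edgeR adjusted p between 0.0706 and 0.111). Igkv1-110 was higher under the empty device than in untreated skin (log2 fold change 1.25, SE 0.486, edgeR adjusted p = 0.0353), a call lost when any empty-device library or untreated library 1 or 3 was left out (adjusted p between 0.0555 and 0.174) and with no filter on low counts (adjusted p = 0.0639). Igkv6-32, with the highest 3-group p of the locus (edgeR adjusted p = 0.589), had 23, 27 and 20 counts untreated, 17, 26 and 33 under the empty device and 28, 36 and 26 under the loaded device. All 3 groups of Igkv6-32 overlapped. Igkv3-10 and Igkv9-124, with 90 and 70 counts in all, had no call.

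The lambda locus was represented by Iglv1 (chr16:18903767-18904250, minus strand), the V gene of most lambda light chains in mice. It had 26, 40 and 29 counts untreated, 2, 6 and 11 under the empty device and 25, 30 and 17 under the loaded device. Empty-device libraries lay below all others and the other groups overlapped. The log2 fold change was -2.47 (SE 0.406, edgeR adjusted p = 8.01e-06) for the empty device against untreated and 1.97 (SE 0.423, adjusted p = 0.000342) for the loaded against the empty device, or -3.07 and 2.58 without empty-device library 3. The difference between loaded and untreated skin did not pass (log2 fold change -0.51, SE 0.325, edgeR adjusted p = 0.23). Iglv1 is the only gene of the 52 that overlaps another row of the table, 2010309G21Rik, so its count may be divided or lost between them.

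T cell receptor V genes were few and thinly counted. The only one of the 52 was Trbv13-2 (chr6:41098330-41098766, plus strand), a V gene of the T cell receptor beta chain. It had 4, 6 and 10 counts untreated, 14, 11 and 10 under the empty device and 6, 1 and 3 under the loaded device. Untreated libraries overlapped both treated groups, and the loaded device lay below the empty device. That difference passed (log2 fold change -1.71, SE 0.565, edgeR adjusted p = 0.0154), but not without loaded-device library 2 (log2 fold change -1.29, adjusted p = 0.0998) or 3 (adjusted p = 0.0578). Without loaded-device library 1 the log2 fold change was -2.43. Over all their rows, the 35 Trb V genes held 392 counts and the 130 Tra V genes held 236, against 4383 for Igh and 7059 for Igk. The Trb sums were 59, 40 and 46 untreated, 55, 24 and 32 under the empty device and 58, 38 and 40 under the loaded device, and the Tra sums 26, 33 and 19, then 23, 28 and 39, then 15, 28 and 25. These sums overlapped between all groups, and differences between them were not tested.

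The heavy and kappa loci differed in how far their V gene sums moved, and most of the Igh fall lay in Ighv7-3. Summed over all its V gene rows, Igh was at 10.1 ± 0.375 CPM (SD, n = 3) untreated, 2.40 ± 0.356 under the empty device and 4.10 ± 0.337 under the loaded device. Igk was at 11.4 ± 1.38, 7.13 ± 0.862 and 7.70 ± 0.711. In both loci every untreated library was above every treated library. The treated groups were apart in Igh, with raw sums of 200, 218 and 271 under the empty device and 338, 406 and 383 under the loaded device, and overlapped in Igk, with 590, 678 and 778 against 618, 721 and 778. A sum over chosen genes carries no test here, and Ighv7-3 alone held 53.2% ± 0.967 of the Igh V counts in untreated skin. Of the Igh sums, Ighv7-3 made up 5.37 CPM untreated, 0.0626 under the empty device and 0.163 under the loaded device. Whether Igh fell further than Igk without this gene was not tested.

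The leading V gene took a different share in the 2 loci. In Igh it was Ighv7-3 in every untreated library, Ighv3-6 in every empty-device library at 10.04% ± 1.22 of the V counts of the locus, and Ighv8-8 in every loaded-device library at 14.8% ± 0.937. In Igk it was Igkv2-109 in every untreated library at 16.4% ± 0.816, Igkv8-30 in every empty-device library at 22.5% ± 2.68, and Igkv6-20 in every loaded-device library at 19.3% ± 2.82. Per base of row length the leaders were the same except in untreated Igk, where Igkv2-109 has a longer row. The effective number of V genes, the exponential of the Shannon entropy of V gene shares, was 10.4 ± 0.452 in untreated Igh against 40.5 ± 3.31 under the empty device and 37.4 ± 2.23 under the loaded device. For Igk it was 24.9 ± 1.03, 24.8 ± 1.55 and 32.5 ± 0.897. Untreated Igh thus had the most counts of the 3 groups and the most uneven use, with no library overlapping a treated one.

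**Figure D3:**
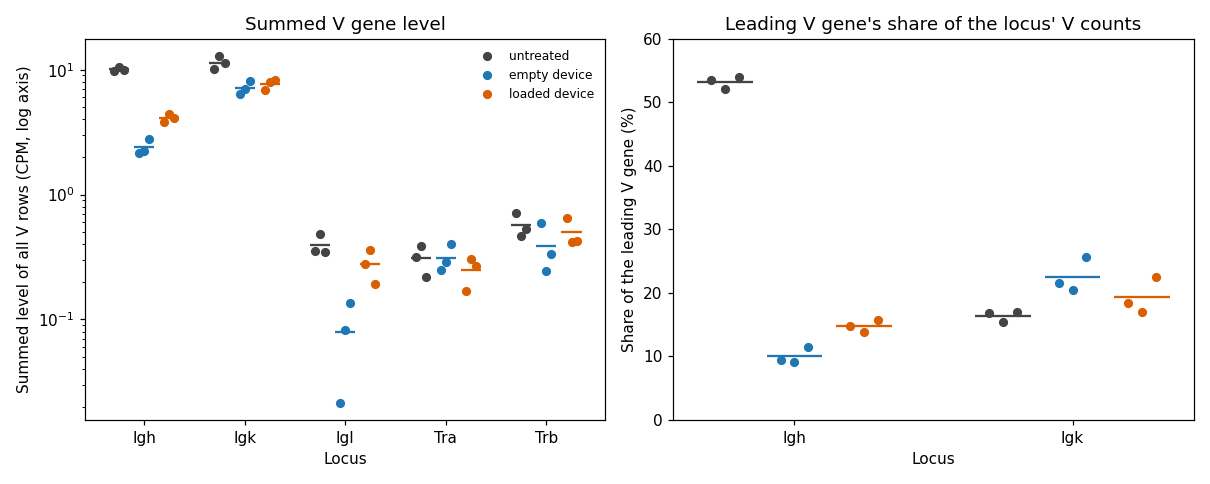
Left, summed level of all V gene rows of each locus in CPM (log axis), and right, the leading V gene's share of the V counts of the locus in percent, with points for libraries and lines for group means. Untreated Igh stands apart at 10.1 CPM and a leading share of 53.2%, while the T cell receptor sums overlap between the groups.

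V gene use was shared within groups far more than between them. Shared use of 2 libraries was taken as the sum, over all V gene rows of a locus, of the smaller of the 2 shares, so that 100% is identical use. In Igk it was 76.3 to 87.3% (median 82.2%) in the 9 pairs of libraries from the same group and 28.7 to 40.2% (median 35.04%) in the 27 pairs from different groups. In Igh it was 58.9 to 86.7% (median 70.7%) and 20.6 to 40.1% (median 24.9%). No pair from different groups reached any pair from the same group in either locus. Empty and loaded devices shared a median of 38.4% of Igh use with each other, more than the 23.2% and 23.6% that each shared with untreated skin. Ighv7-3 alone held 53.2% of untreated Igh V counts, and only 18 and 45 counts under the empty and loaded devices. That gene therefore limits what untreated and treated libraries can share in Igh, and adds to sharing among untreated libraries. Shared use without Ighv7-3 was not computed. In Igk the loaded device shared 38.2% with untreated skin and 35.7% with the empty device, and the empty device shared 32.0% with untreated skin. These pairs share libraries and are given without a test. Because the labels are silent on whether a group's libraries are different animals, animal and treatment cannot be told apart here. Lower shared use within the empty-device Igh libraries, at 58.9 to 67.5%, goes with their lower counts, whose part in it was not tested.

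**Figure D4:**
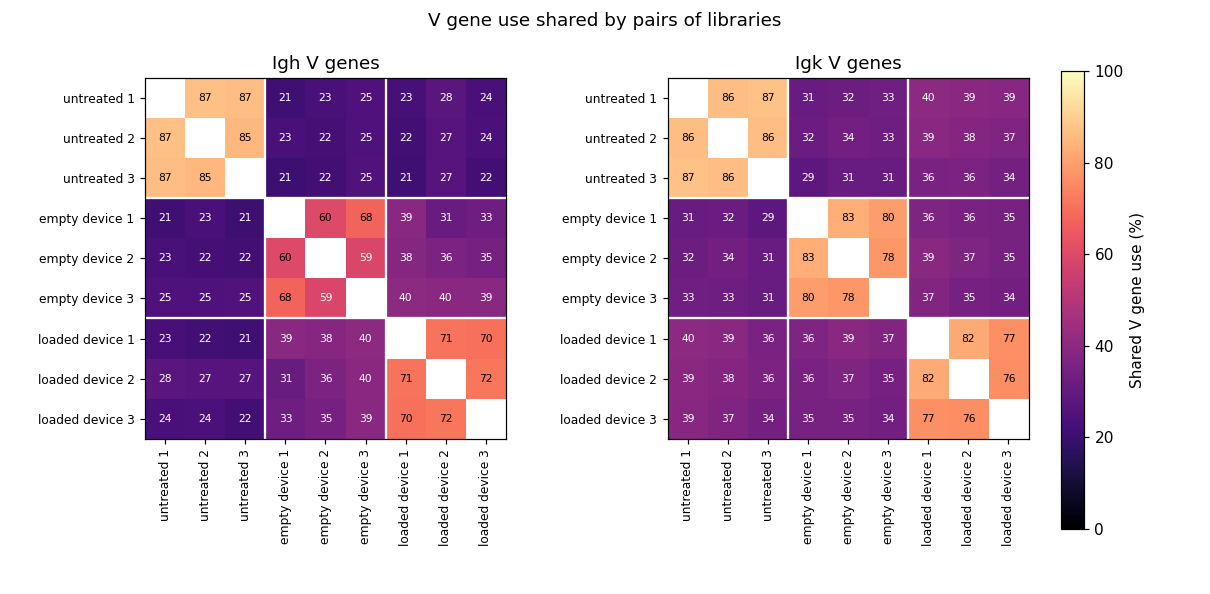
Shared V gene use in percent for each pair of the 9 libraries, in Igh on the left and Igk on the right, with white lines between the groups. The bright blocks on the diagonal are pairs from the same group, at 58.9% or more in Igh and 76.3% or more in Igk, and all pairs between groups are at 40.2% or less.

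Genes highest in untreated skin were spread along both loci, and those highest under a device in Igk mostly lay within 605 kb of the J segments. The genes highest in untreated skin lay from 316 to 2685 kb from the J segments in Igk and from 482 to 2580 kb in Igh. In Igk, those highest under the empty device spanned 381 to 2466 kb and those highest under the loaded device 23.5 to 1953 kb, so the ranges of the groups overlapped. The 52 genes fall into 24 V gene families by name, 13 with at least 2 genes. Families were compared by the group with a gene's highest mean CPM, whether or not the gene was tested or called. By that measure 9 of the 13 had genes led by more than 1 group. Igkv6 and Igkv3, with 6 genes each, had genes led by each of the 3 groups. In Igkv3 only Igkv3-2 met the 2-fold conditions for being highest. In Igkv10, Ighv8, Ighv7 and Ighv14 all listed genes had their highest mean in the same group. All 17 heavy chain genes lie on the minus strand, and the kappa genes lie on both, with 17 on the plus and 16 on the minus strand.

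**Figure D5:**
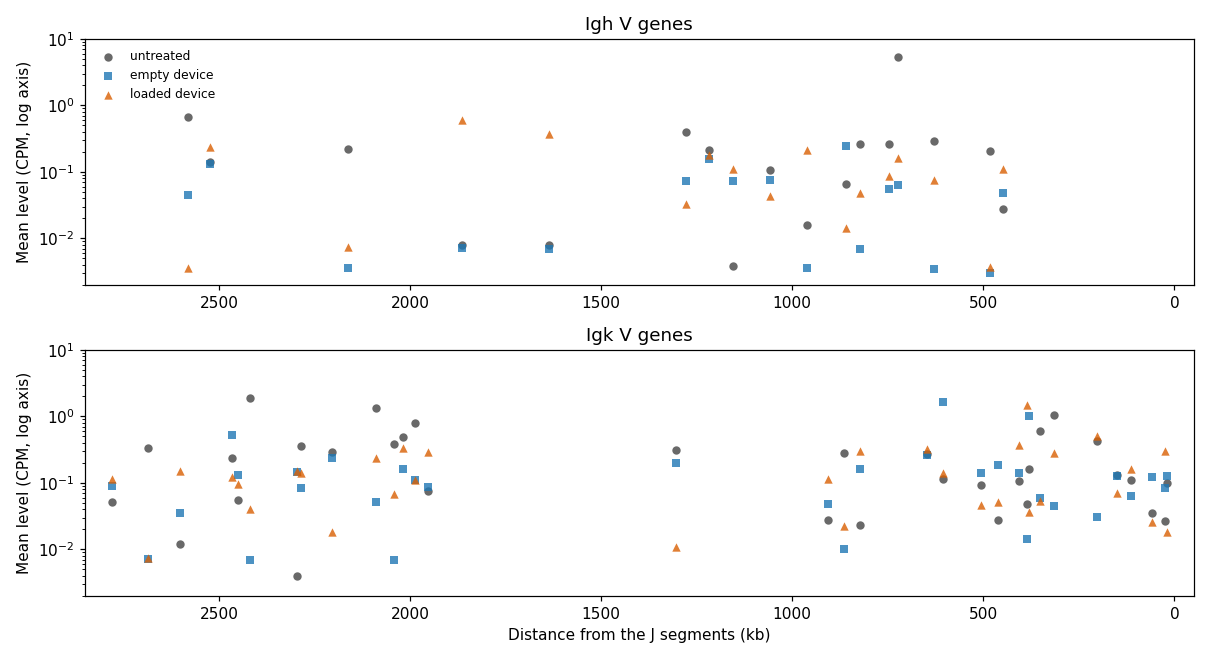
Mean level in CPM (log axis) of each heavy chain (top) and kappa (bottom) V gene of the 52 against its distance from the J segments in kb, with 1 point per gene and group. A mean of 0 (Ighv7-2 under the empty device) is drawn at 0.003 CPM. Genes high in untreated skin are spread along both loci, and those high under either device along Igk.

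Some constant region genes, which encode the part of the antibody that follows the variable end, were also lower in treated skin, Ighg1 most of those given here. Of 13 listed constant and joining chain genes, 10 were tested. For the loaded device against untreated, 4 were lower and none higher, where 42.3% of all tested genes were called at any size, 19% higher and 23.3% lower. For the empty device 5 were lower and 1 higher (48.3% of all genes, 20.2% higher and 28.1% lower), and for the loaded against the empty device 4 were higher and 3 lower (41.4%, 22.9% higher and 18.5% lower). Ighg1, the heavy chain constant region of IgG1, had 1397, 1544 and 1505 counts untreated, 268, 325 and 339 under the empty device and 193, 215 and 262 under the loaded device. Untreated libraries were above all others. Its log2 fold changes were -2.43 (SE 0.0765) and -2.84 (SE 0.0802) for the empty and the loaded device.

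Other classes moved less than Ighg1. Ighg2b, the constant region of IgG2b, had 453, 538 and 483 counts untreated, 208, 215 and 249 under the empty device and 206, 265 and 290 under the loaded device. Ighm, the constant region of IgM, had 793, 896 and 880, then 878, 872 and 933, then 584, 674 and 767. Ighg2b was lower in both treated groups (log2 fold change -1.31 and -1.07), and Ighm only under the loaded device by the test against untreated (log2 fold change -0.46). Jchain, which links antibodies into multimers, had 388, 474 and 390, then 193, 245 and 314, then 437, 446 and 489 counts. It fell under the empty device alone (log2 fold change -0.91, SE 0.122, against untreated), as Iglv1 did. The kappa constant gene Igkc was listed at 0 counts in every library: it lies inside the span of another row, Gm30211, so kappa constant and V gene counts cannot be set side by side.

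T cell receptor constant genes had more counts than the V genes of their loci. Trbc2 had 1487, 1361 and 1325 counts untreated, 1143, 1237 and 1171 under the empty device and 789, 846 and 856 under the loaded device, with no overlap between the groups. Of 4 such genes (Trac, Trbc1, Trbc2 and Trdc), 3 were lower under the loaded device and 2 under the empty device than untreated, where 23.3% and 28.1% of all tested genes were lower. Trac passed in no comparison. Of the genes that carry out V gene joining, Dntt was tested and had no call, and Rag2, with 6, 7 and 5 counts untreated, 3, 4 and 10 under the empty device and 5, 3 and 6 under the loaded device, did not pass the filter. Rag1 was listed at 0 in every library, in a row that overlaps another row, Iftap, as Rag2 does.

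Marker genes were counted for the cells that carry V gene RNA and for other cells of the skin. For the loaded device against untreated, 19% of all tested genes were higher and 23.3% lower, and for the empty device 20.2% and 28.1%. Of 8 B cell genes (Ms4a1 among them), 2 were lower and none higher for the loaded device and 2 lower and 1 higher for the empty device, against untreated, shares of lower genes near those over all genes. Their summed level was 6.94 to 8.18 CPM untreated, 6.06 to 7.36 under the empty device and 5.93 to 6.22 under the loaded device. Of 8 plasma cell genes, 7 were tested and Mzb1, whose row overlaps Gm50318, was listed at 0 in every library. Against untreated, 1 was higher and 1 lower for the loaded device, and 1 higher and 2 lower for the empty device. The 2 lower genes were Derl3 (log2 fold change -0.64, edgeR adjusted p = 0.0125) and Fkbp11 (-0.58, adjusted p = 7.11e-06). Both were higher under the loaded than the empty device (0.73 and 0.54, edgeR adjusted p = 0.0047 and 2.06e-05), as Jchain and Iglv1 were. In that comparison 2 of the 7 were higher and 2 lower, where 22.9% and 18.5% of all tested genes were. Those lower were Prdm1 (log2 fold change -0.19, edgeR adjusted p = 2.76e-05) and Xbp1 (-0.20, adjusted p = 5.63e-06). The plasma cell sum, 983 to 989, 949 to 992 and 944 to 957 CPM, was mostly Sdc1, Xbp1 and Prdm1, which keratinocytes also express. Of 12 T cell genes, 8 were lower for the loaded device and 5 for the empty device against untreated, none higher. Their summed level was 35.03 to 36.2, 27.3 to 31.6 and 26.1 to 27.0 CPM. Of 6 macrophage genes, all 6 were lower for the loaded device, and 5 were lower and 1 higher for the empty device, with summed levels of 204 to 217, 184 to 190 and 133 to 146 CPM. Of 7 lymph node and follicular dendritic cell genes, 4 were tested, and 2 were lower for the loaded and 1 for the empty device, none higher. Of 6 skeletal muscle genes, 1 was higher and 4 lower for the loaded device, and 4 were higher and 1 lower for the empty device, with summed levels of 5349 to 5539, 6306 to 7331 and 4941 to 5408 CPM. The part of these cell types in the V gene differences was not tested.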

How the data were processed

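The data are RNA-seq libraries of mouse skin. The authors deposited 1 table of raw counts per gene; per the submitters' processing notes, HISAT2, featureCounts and the mm39 build were used. Their versions, the annotation, the strand setting and how reads that fit several genes were treated are each not given in the sources used here. Row length equals genomic span in 99.9% of rows, so introns were counted. From these counts, genes passing edgeR's filterByExpr (minimum count 10; 26081 genes) were fitted over all 9 libraries (R 4.3.3, edgeR 4.0.16, limma 3.58.1) with TMM scaling, 1 coefficient per group and the robust quasi-likelihood test, with Benjamini-Hochberg adjustment over all tested genes and calls under 0.05. CPM are scaled to the TMM-adjusted library size. The fit was also run on simulated data in which few genes changed and all genes had the same spread. That run was not a check of V gene calls that rest on few counts in a group. Named V genes are those called at 2-fold or more in a comparison, plus the most counted gene and the gene with the highest 3-group p of each locus; genes just inside or outside the count threshold, those not tested, Ighv1-82, Igkv3-10 and Igkv9-124 were named after their values were seen. The V genes and gene lists were chosen with earlier results of these data known. Alternatives were other scalings, filters, DESeq2 1.42.0, no robust fit, 2-group fits, a replicate block, other count thresholds and leaving out each library. Replicate numbers are shared between groups without a stated pairing. Some genes of the fixed lists are not reported here and were left out of the list values given.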

Additional observations from a re-analysis of the deposited data

How the results depend on the processing

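Low counts limit what could be tested. DESeq2 gave no adjusted p for 27, 15 and 18 of the 44 V genes in the loaded against untreated, empty against untreated and loaded against empty comparisons, and called 12, 18 and 16 (11, 18 and 15 at 2-fold or more). A minimum count of 30 left 14 V genes to test, with 12, 12 and 11 calls (10, 12 and 10 at 2-fold or more), and all 14 differed among the 3 groups. Among genes with at least 100 counts, 18 were called for the empty device against untreated, all 18 at 2-fold or more. Leaving out a library let 48 to 52 V genes pass the filter, and calls ranged from 30 to 36, 28 to 31 and 25 to 31. For DESeq2, the minimum count of 30 and the left-out libraries, the shares of all genes called are not given here. Those counts therefore describe the V genes only and do not set them apart from other genes.

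Of 84 calls of named V genes, 73 held in every one of the 17 alternatives that gave a value, 11 were lost in at least 1, all 11 by leaving out a library, and 0 changed sign. In 34 calls, leaving out a library moved the fold change, before taking log2, by over 1.5 times and the call held. The replicate block kept 84 of 84 and gave 30, 28 and 26 calls. Same-numbered libraries deviated together no more than others (correlations of -0.0187 to 0.0150 against -0.0233 to 0.0307). A shared effect that is small or limited to few genes would not show in this. Library size alone shifted every gene by 0.13, 0.10 and 0.03 (log2) in the 3 comparisons. It turned the 4950 higher and 6074 lower calls over all genes for the loaded device into 8487 and 3973, and the 5258 and 7339 for the empty device into 7677 and 5577. Over V genes the calls changed by at most 1.

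Over the chosen V genes alone, Igh sums were 8.29, 0.993 and 2.30 CPM in untreated, empty-device and loaded-device skin, against 10.1, 2.40 and 4.10 CPM over all rows, and 7.85 untreated with library size alone. Igk sums were 10.2, 6.14 and 6.21 CPM, against 7.13 and 7.70 over all rows of the treated groups. Trb, with 1 chosen gene, had 0.0782, 0.122 and 0.0367 CPM, against 0.573, 0.391 and 0.497 over all rows. The leading share of the chosen counts was 64.8%, 24.4% and 26.5% in Igh, against 53.2%, 10.04% and 14.8% of all rows, and 18.3%, 26.2% and 24.0% in Igk, against 16.4%, 22.5% and 19.3%. No sum over chosen Tra genes and no leading share in Tra or Trb could be given, with 0 and 1 chosen genes.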

Other observations

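V genes of the gamma and delta T cell receptor chains lay outside the rule, and the most counted of them were those of skin-resident gamma-delta T cells. They were named after their values were seen. Trdv4, a delta chain V gene, had 165, 156 and 153 counts untreated, 138, 155 and 175 under the empty device and 123, 124 and 163 under the loaded device, more than any alpha or beta V gene. Trgv5, a gamma chain V gene, had 91, 73 and 76, then 53, 75 and 76, then 41, 50 and 66. Trgv6 had 15, 17 and 14, then 11, 11 and 11, then 3, 2 and 7, and was lower under the loaded device than in untreated skin (log2 fold change -2.02, SE 0.477, edgeR adjusted p = 0.000947). Trgv5 and Trdv4 were also called lower under the loaded device than in untreated skin (log2 fold change -0.73, SE 0.195, edgeR adjusted p = 0.00319, and -0.32, SE 0.131, adjusted p = 0.0475). Untreated and loaded-device libraries did not overlap in Trgv5 or Trgv6 and overlapped in Trdv4.

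The row Gm30211 (chr6:70696058-70717538, plus strand), whose span contains Igkc, had 313, 370 and 361 counts untreated, 172, 174 and 206 under the empty device and 284, 259 and 314 under the loaded device. Its log2 fold change was -1.09 (SE 0.101) for the empty and -0.40 (SE 0.0952) for the loaded device against untreated. Which of its counts come from the kappa constant region was not tested.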
